A study of Mus musculus with 24 samples.

Results

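The genes of MHC class I antigen presentation and of the immunoproteasome were followed in mouse macrophages stimulated with lipopolysaccharide (LPS), LPS with interferon gamma (IFNg), or interleukin 4 (IL-4). The set held 10 genes out of 43629 gene identifiers in the count files, found by matching each identifier to its GENCODE M21 symbol: H2-K1, H2-D1, B2m, Tap1, Tap2, Tapbp, Psmb8, Psmb9, Psmb10 and Nlrc5. All 10 passed the filter on low counts. Bone marrow cells of wild type C57BL/6 mice had been grown for 7 days with CSF-1 (20 ng/mL), which drives their differentiation into macrophages, and CSF-1 stayed in the medium during stimulation. The cells then received no stimulus, LPS, LPS+IFNg or IL-4 for 1 h or 18 h, which gave 8 groups of 3 RNA-seq libraries and 24 in all. IFNg was used at 50 ng/mL and IL-4 at 20 ng/mL. For LPS the labels name 2 doses, 20 and 100 ng/mL, and do not tie either to a library. No library received IFNg alone, so the effect of IFNg was measured only on top of LPS. Whether the LPS and LPS+IFNg libraries had the same LPS dose is not stated. What is called the effect of IFNg below may thus include a difference in LPS dose.

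MHC class I molecules show peptides from inside the cell to CD8 T cells. The proteasome cuts proteins into peptides, the TAP transporter carries the peptides into the endoplasmic reticulum, and tapasin holds empty class I molecules next to TAP until a peptide is bound. In the immunoproteasome the catalytic subunits encoded by Psmb8, Psmb9 and Psmb10 replace those encoded by Psmb5, Psmb6 and Psmb7, which changes the peptides that are made, and Nlrc5 encodes a transactivator of class I genes. Interferon gamma is known to raise this whole pathway. LPS, a component of the outer membrane of Gram-negative bacteria, acts through Toll-like receptor 4 on NF-kappaB and on type I interferon production. IL-4 acts through STAT6 and drives the alternative form of macrophage activation.

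Library totals ran from 4181890 to 8122945 counts, with 15450 to 19108 genes detected. The labelled cell type was checked against markers, whose levels are in CPM (counts scaled to a common library size with TMM factors). The summed level of 9 macrophage genes was 15599 to 19533 CPM in the 12 libraries of 1 h; at 18 h it was 14951 to 16764 CPM without stimulus, 24791 to 26136 CPM with LPS, 12977 to 13333 CPM with LPS+IFNg and 10543 to 10960 CPM with IL-4. The 7 T or NK cell markers summed to 12.9 to 15.9 CPM with LPS+IFNg at 1 h and 3.22 to 4.55 CPM with it at 18 h, against at most 1.72 CPM in the other groups. Of these 7, Lck alone passed the filter and had 227 counts over the 3 libraries of LPS+IFNg at 1 h, against 4 without stimulus and 3 with LPS, while the other 6 together had 6 counts there and Cd3e was at 0 in all 24 libraries. The 6 stromal or endothelial markers summed at 18 h to 12.3 to 17.2 CPM with LPS, 9.0 to 11.6 CPM with LPS+IFNg and 6.46 to 11.3 CPM with IL-4, against 1.57 to 2.24 CPM without stimulus, and in the 3 stimulated groups Pecam1 had most of these counts (179, 146 and 171, against 15 without stimulus). The 7 dendritic cell genes summed to 13.6 to 18.4 CPM in LPS+IFNg at 18 h and to 9.56 CPM or less elsewhere, 7 neutrophil genes to 26.5 to 50.8 CPM in LPS+IFNg at 18 h against 95 to 149 CPM in unstimulated cells at 18 h, and 5 erythroid genes to at most 0.225 CPM in any library. Their part in the results was not tested. In these bulk libraries a change in the number of cells of a type cannot be told from a change in marker RNA per cell. Replicate 2 of LPS at 18 h stood apart from its group: its chi-square per gene against the others was 9.25 and 11.4, while the other pair had 2.42, and 9 of the 10 genes were higher in it than the mean of the other 2, by a median of 0.27 on the log2 scale. Replicate 2 of IL-4 at 18 h stood apart less (7.41 and 4.56, against 3.26 for the other pair), and replicate pairs of the other groups had 1.62 to 3.59.

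At 18 h the whole set rose under both inflammatory stimuli. All 10 genes were called higher with LPS at 18 h, a comparison in which 31.8% of the 12765 tested genes were called higher, and the libraries of the 2 groups overlapped for none of the 10. All 10 were also called higher with LPS+IFNg at 18 h, where 36.1% of tested genes were called higher, again with no overlap. The share of all tested genes whose libraries did not overlap was not counted, here or below. The median log2 change of the set was 2.50 with LPS and 3.24 with LPS+IFNg, beside 0.01 and 0.00 over all tested genes. TMM scaling holds the median over all tested genes near 0, here and below. With scaling by totals it was -0.41 with LPS and -0.54 with LPS+IFNg. Calls here and below are from edgeR's quasi-likelihood test at an adjusted p below 0.05 over all tested genes, and errors on log2 changes are standard errors. The 2 comparisons share the unstimulated libraries, so they are not independent of each other.

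At 1 h the changes were few and small with LPS and larger with IFNg present. LPS at 1 h raised 4 of the 10 genes, H2-K1, H2-D1, Tapbp and B2m, in a comparison where 10.8% of tested genes were called higher, and lowered none of them (11.4% of tested genes were called lower). The count was 2 to 4 when single libraries were left out, and scaling by totals left H2-K1 as the only one called higher, with Tap1 and Psmb9 called lower. The median log2 change of the set was 0.15, beside 0.00 over all tested genes. LPS+IFNg at 1 h raised 8 of 10, against 14.7% of tested genes, with a median of 0.53 beside 0.01 over all tested genes. With scaling by totals B2m (0.15), Tap2 (0.047) and Nlrc5 (0.28) lost that call. Psmb8 and Psmb10 were the 2 not called, and with scaling by totals both of their changes were negative (-0.083 and -0.041).

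**Figure D1:**
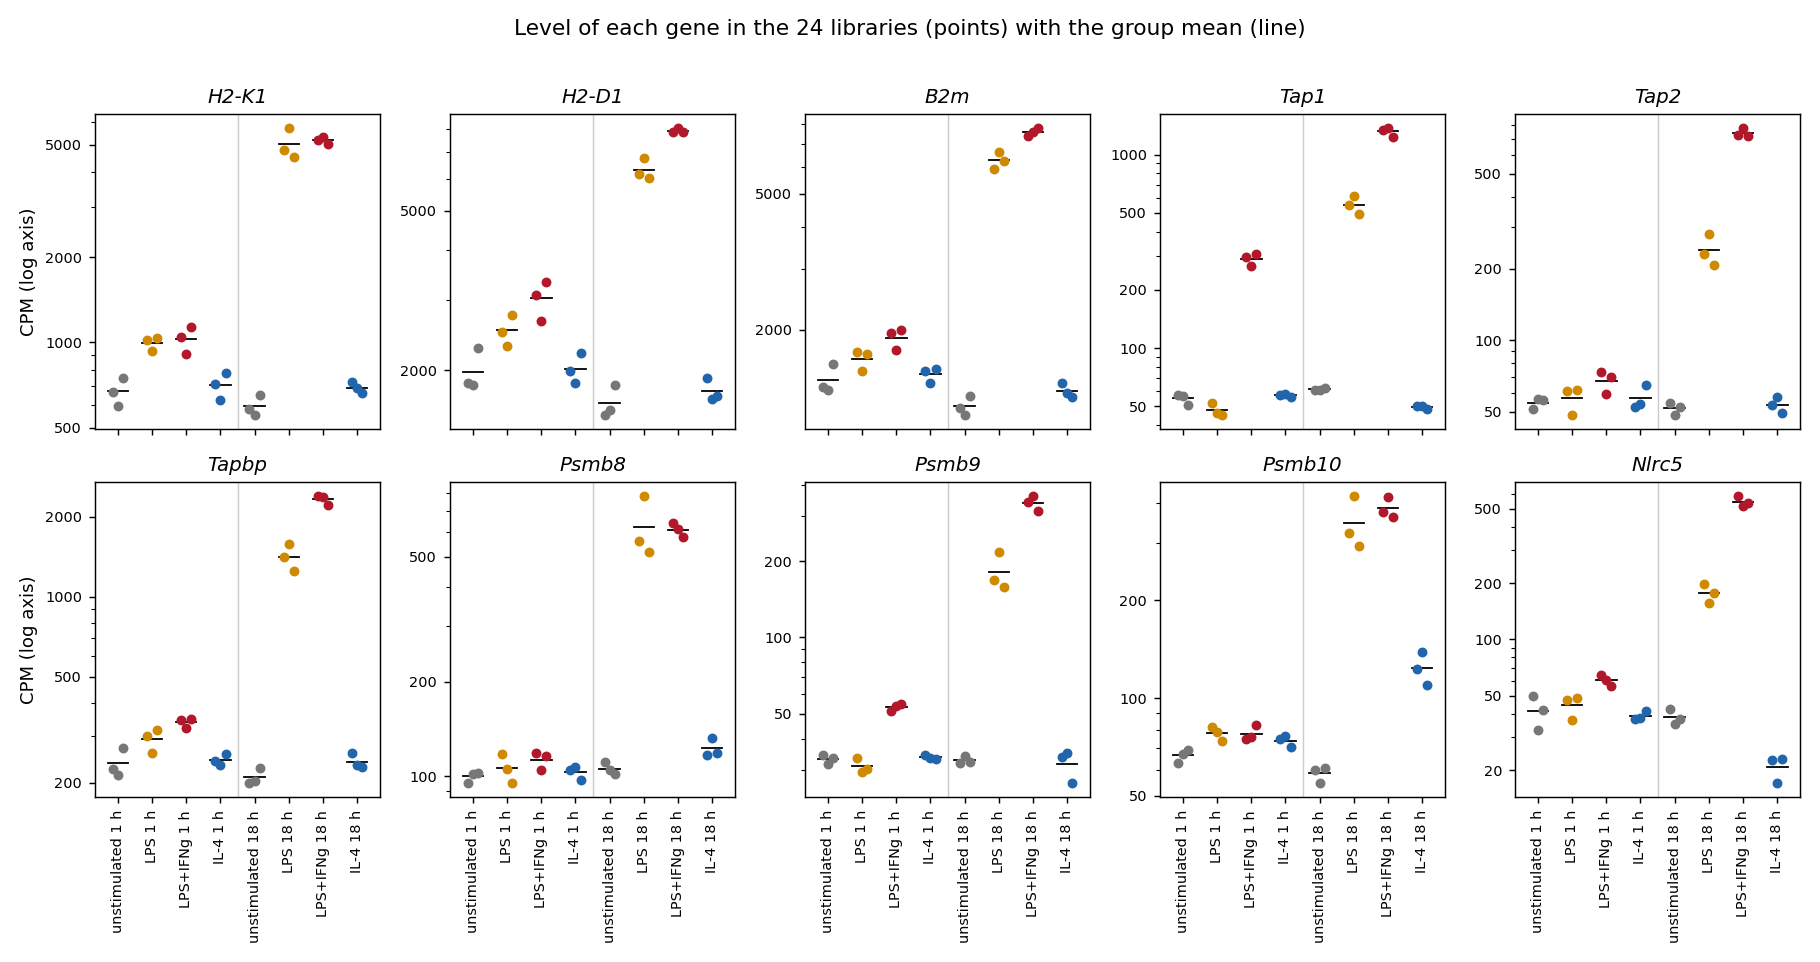
Level of each of the 10 genes in CPM on a log axis (the range differs between panels), with points for the 24 libraries and a line at each group mean. The LPS and LPS+IFNg groups at 18 h lie above the other groups in every panel, and Tap1 stood at 267 to 305 CPM with LPS+IFNg at 1 h, against 51.1 to 57.4 CPM without stimulus.

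Unstimulated cells already held much class I message. Levels of different genes were compared per kilobase of transcript, and their order depends on the transcript lengths taken. B2m had the highest such level in unstimulated cells at 18 h with 1389 ± 93.3 CPM per kilobase (SD, n = 3). H2-D1 followed with 789 ± 73.3 and H2-K1 with 367 ± 30.6 CPM per kilobase. The other 7 genes lay lower, from 72.4 ± 5.24 CPM per kilobase for Tapbp down to 5.07 ± 0.508 for Nlrc5. With LPS+IFNg at 18 h, B2m reached 8826 ± 219, H2-D1 3773 ± 49.0 and H2-K1 3201 ± 98.8 CPM per kilobase, so these 3 genes stayed on top, and Tap1 moved from 20.7 ± 0.234 to 446 ± 24.1, above Psmb8 with 374 ± 19.2 CPM per kilobase. Time alone changed little: between unstimulated cells at 18 h and at 1 h only B2m was called, and it fell by 0.26 ± 0.07 on the log2 scale (adjusted p = 0.023, edgeR), where 8.01% of tested genes were called lower and 4.00% higher. That call was lost without replicate 3 of the unstimulated group at 1 h (-0.17, adjusted p = 0.21) and without replicate 1 (-0.25) or 2 (-0.21) of the group at 18 h. It was also lost with scaling by totals (-0.18). H2-D1 was called lower without the filter on low counts (-0.26) and with the replicate block (-0.26). It was also called lower without replicate 2 of the unstimulated group at 1 h (-0.31) or replicate 3 of that at 18 h (-0.34).

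The heavy chains H2-K1 and H2-D1 bind the peptide, and B2m encodes the light chain that every class I molecule needs. H2-K1 lies at chr17:33996017-34000347 on the minus strand, H2-D1 at chr17:35262730-35267499 on the plus strand and B2m at chr2:122147686-122153083 on the plus strand of GRCm38. The promoter windows of these genes are shown because these 3, with Tapbp, were the members called with LPS at 1 h. They run from 250 bases before to 50 bases after the RefSeq start (GRCm38.p6), and capitals mark matches to the motifs below on either strand. H2-K1 (the first of 2 listed starts) is chr17:34000298-34000597, minus strand; H2-D1 is chr17:35262844-35263143, plus strand; B2m is chr2:122147437-122147736, plus strand.
H2-K1: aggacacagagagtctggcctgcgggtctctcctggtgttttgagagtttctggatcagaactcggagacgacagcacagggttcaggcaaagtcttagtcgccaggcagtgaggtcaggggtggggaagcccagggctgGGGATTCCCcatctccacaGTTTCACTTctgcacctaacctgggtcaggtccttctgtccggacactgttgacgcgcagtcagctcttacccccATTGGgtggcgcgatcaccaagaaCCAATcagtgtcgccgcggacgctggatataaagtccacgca
H2-D1: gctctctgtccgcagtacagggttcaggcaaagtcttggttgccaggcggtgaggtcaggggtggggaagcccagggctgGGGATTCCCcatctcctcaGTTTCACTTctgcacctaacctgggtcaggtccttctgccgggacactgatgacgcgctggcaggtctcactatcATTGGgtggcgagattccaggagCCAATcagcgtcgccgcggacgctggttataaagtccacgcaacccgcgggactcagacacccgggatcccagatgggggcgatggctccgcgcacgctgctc
B2m: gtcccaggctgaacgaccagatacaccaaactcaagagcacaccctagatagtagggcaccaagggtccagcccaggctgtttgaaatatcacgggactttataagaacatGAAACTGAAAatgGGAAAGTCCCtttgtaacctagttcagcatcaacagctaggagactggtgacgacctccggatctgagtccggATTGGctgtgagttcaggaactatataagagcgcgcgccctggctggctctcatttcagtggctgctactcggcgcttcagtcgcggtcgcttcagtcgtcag
Both strands were searched for the core of the interferon-stimulated response element, which interferon regulatory factors bind, for the NF-kappaB motif and for CCAAT, and no match overlaps another in these 3 windows. The H2-K1 and H2-D1 windows share a run of 47 bases that holds GGGATTCCC, an NF-kappaB-like sequence found in 0.353% of 32544 promoters. Both also hold GTTTCACTT, found in 0.399% of them, and these last 2 motifs were chosen after the windows had been read. GGGATTCCC lies at -110 to -102 from the H2-K1 start and at -170 to -162 from the H2-D1 start. B2m holds the response element core as GAAACTGAAA at -139 to -130 (3.45% of promoters hold this core) and the NF-kappaB motif on the other strand, reading GGAAAGTCCC, at -126 to -117 (1.47% of promoters). CCAAT, present in 37.4% of promoters, was found in 6 of the 8 genes of the set that the promoter table lists. The window of Tapbp, which was also called with LPS at 1 h, is not shown. Of the motifs named here it holds only CCAAT. A match describes letters only and says nothing about binding in these cells.

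H2-K1 moved early with LPS and changed most of the 3. Its level in unstimulated cells at 1 h was 669, 595 and 749 CPM in replicates 1 to 3, and with LPS at 1 h it was 1017, 931 and 1041 CPM. All 3 LPS libraries were above all 3 unstimulated ones, and the log2 change was 0.57 ± 0.10 (1.49-fold, adjusted p = 2.4e-05, edgeR). At 18 h the unstimulated libraries held 581, 553 and 649.6 CPM and the LPS libraries 4804, 5723 and 4522 CPM, a log2 change of 3.08 ± 0.10 (8.43-fold, adjusted p = 3.4e-21, edgeR). LPS+IFNg libraries at 18 h held 5209, 5328 and 5011 CPM, inside the range of the LPS libraries. The difference of LPS+IFNg from LPS was 0.05 on the log2 scale with a 95% interval of -0.14 to 0.24, and at 1 h it was 0.05 with an interval of -0.15 to 0.24, so neither time showed a difference at this precision.

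H2-D1 started higher and changed less. With LPS at 1 h it rose by 0.34 ± 0.09 on the log2 scale (adjusted p = 5.2e-03, edgeR), from 1855, 1833 and 2269 CPM in unstimulated cells to 2496, 2303 and 2752 CPM, with no overlap. With scaling by totals the change was 0.15 and was not called (adjusted p = 0.14). At 18 h it went from 1545, 1596 and 1833 CPM without stimulus to 6170.3, 6789 and 6053 CPM with LPS and 7882, 8048 and 7859 CPM with LPS+IFNg. The 3 groups did not overlap, and the log2 changes of 1.93 ± 0.09 (3.82-fold) and 2.26 ± 0.09 (4.78-fold) were the smallest of the set in both comparisons. IFNg on top of LPS raised H2-D1 at 18 h by 0.32 ± 0.09 (1.25-fold, adjusted p = 3.8e-03, edgeR). The ratio of H2-K1 to H2-D1 per kilobase was 0.466 ± 0.0197 in unstimulated cells at 18 h, 1.03 ± 0.0635 with LPS and 0.848 ± 0.0179 with LPS+IFNg (SD, n = 3); this ratio was chosen after its values were seen and was not tested. Part of both transcripts cannot be told from other class I genes: 9.63% of 50-base windows of H2-K1 and 12.8% of those of H2-D1 occur in other genes, and how reads with several alignments were counted is not given in the sources used here.

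B2m followed the heavy chains. Its libraries held 1179, 1123 and 1281 CPM without stimulus at 18 h, 5924, 6637 and 6217 CPM with LPS, and 7401, 7592 and 7778 CPM with LPS+IFNg, and the 3 groups did not overlap. The log2 change was 2.39 ± 0.08 with LPS (5.24-fold) and 2.67 ± 0.08 with LPS+IFNg (6.36-fold), and IFNg on top of LPS raised it by 0.28 ± 0.07 (1.21-fold, adjusted p = 2.6e-03, edgeR). At 1 h the changes were smaller, 0.20 ± 0.07 with LPS (adjusted p = 0.049, edgeR) and 0.41 ± 0.07 with LPS+IFNg. The LPS call at 1 h did not hold without the filter on low counts (0.19), with the compared groups alone (0.20), with scaling by totals (0.016), without replicate 1 (0.16) or 3 (0.18) of LPS, or without replicate 1 (0.16) or 2 (0.15) of the unstimulated group, and the libraries of the 2 groups overlapped.

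Tap1 and Tap2 encode the 2 subunits of the peptide transporter, and Tapbp encodes tapasin. Tap1 lies at chr17:34187553-34197225, plus strand, and starts head to head with Psmb9 at chr17:34181987-34187764, minus strand, so that the 2 genes overlap by 212 bases. The 300-base windows at their starts share 275 bases in opposite orientation, and the Tap1 window (chr17:34187306-34187605, plus strand, GRCm38.p6, RefSeq) is shown because these neighbours moved to different extents.
Tap1: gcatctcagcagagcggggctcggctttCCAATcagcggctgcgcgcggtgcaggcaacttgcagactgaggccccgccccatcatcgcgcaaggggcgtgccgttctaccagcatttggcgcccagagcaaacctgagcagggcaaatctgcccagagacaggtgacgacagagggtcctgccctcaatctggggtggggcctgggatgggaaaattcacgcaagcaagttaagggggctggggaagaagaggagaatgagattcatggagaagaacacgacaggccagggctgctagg
Of these 3 motifs it holds only CCAAT, in capitals.

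At 1 h Tap1 had the largest log2 change of the set with LPS+IFNg, against both unstimulated and LPS-treated cells. Its 3 libraries held 57.4, 56.7 and 51.1 CPM without stimulus at 1 h, 52.3, 46.3 and 45.0 CPM with LPS, and 296, 267 and 305 CPM with LPS+IFNg. The LPS+IFNg libraries stood far above both other groups, with a log2 change of 2.39 ± 0.08 against unstimulated cells (5.25-fold, adjusted p = 8.5e-21, edgeR) and of 2.59 ± 0.08 against LPS (6.03-fold, adjusted p = 2.3e-20). The LPS group at 1 h was not called: its difference from unstimulated cells was -0.20 with a 95% interval of -0.39 to -0.02 (adjusted p = 0.12, edgeR). Scaling by totals, under which the median over all tested genes shifted by -0.19, gave -0.39, a called difference.

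By 18 h Tap1 had risen with LPS too. The unstimulated libraries held 60.6, 60.8 and 61.9 CPM, the LPS libraries 549, 611 and 494 CPM, and the LPS+IFNg libraries 1345, 1371 and 1236 CPM. The groups were fully separated, and the log2 changes of 3.17 ± 0.08 with LPS (9.01-fold, adjusted p = 7.1e-24) and 4.43 ± 0.08 with LPS+IFNg (21.5-fold, adjusted p = 4.0e-27, edgeR) were the largest of the set in both comparisons. With LPS+IFNg, 54.0% of the log2 change of Tap1 at 18 h was present at 1 h, while the other 9 genes had between 7.17% (Psmb8) and 26.9% (H2-D1). Between its lowest group, LPS at 1 h, and its highest, LPS+IFNg at 18 h, Tap1 differed 27.5-fold.

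Tap2, at chr17:34203527-34216321 on the plus strand, hardly moved at 1 h. It held 51.4, 56.6 and 56.1 CPM without stimulus, 61.0, 48.7 and 61.5 CPM with LPS, and 73.9, 59.4 and 70.0 CPM with LPS+IFNg. The LPS+IFNg libraries were above the unstimulated ones by 0.31 ± 0.11 on the log2 scale (adjusted p = 0.031, edgeR), a call that was lost without replicate 1 of the unstimulated group (0.27) or replicate 1 (0.25) or 3 (0.29) of LPS+IFNg. At 18 h it went from 54.5, 48.5 and 52.4 CPM without stimulus to 229.6, 279 and 208 CPM with LPS and 731, 779 and 725 CPM with LPS+IFNg. These groups did not overlap, the log2 changes were 2.20 ± 0.10 (4.61-fold) and 3.85 ± 0.11 (14.4-fold), and IFNg on top of LPS raised Tap2 by 1.64 ± 0.09 (3.12-fold), the largest such difference in the set at 18 h. The ratio of Tap1 to Tap2 per kilobase was 1.18 ± 0.120 in unstimulated cells at 1 h, 5.00 ± 0.296 with LPS+IFNg at 1 h and 2.06 ± 0.0791 with LPS+IFNg at 18 h (SD, n = 3); it too was chosen after its values were seen and was not tested.

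Tapbp, at chr17:33915899-33929292 on the plus strand, was called higher with each inflammatory stimulus at each time with all libraries in the fit. At 1 h it held 225, 214 and 269.8 CPM without stimulus, 299, 258 and 315 CPM with LPS and 345, 321 and 347 CPM with LPS+IFNg. The LPS and unstimulated libraries overlapped, and the LPS change was 0.30 ± 0.09 on the log2 scale (adjusted p = 0.014, edgeR). That call was lost without replicate 1 (0.27) or 3 (0.24) of LPS or replicate 1 (0.26) or 2 (0.23) of the unstimulated group. With scaling by totals the LPS change was 0.11 and was not called (adjusted p = 0.29, edgeR). The LPS+IFNg change was 0.52 ± 0.09, with no overlap. At 18 h the level was 199, 203 and 227 CPM without stimulus, 1414, 1576 and 1252 CPM with LPS, and 2391, 2378 and 2207 CPM with LPS+IFNg, which gave fully separated groups, log2 changes of 2.75 ± 0.09 (6.74-fold) and 3.47 ± 0.10 (11.1-fold), and a difference of 0.72 ± 0.09 (1.64-fold) for IFNg on top of LPS.

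Several members overlap genes on the other strand, and whether strand was used in counting is not given in the sources used here, although the library kit marks strand. Gm20496, which overlaps exons of Psmb8 and Tap2 from the other strand, had a mean of 46.3 CPM without stimulus, 247 CPM with LPS and 311 CPM with LPS+IFNg at 18 h. Gm15821 over Tap2 went from 14.8 to 69.2 and 211 CPM, Gm19412 over Tapbp from 29.3 to 184 and 311 CPM, and 9330175E14Rik over Nlrc5 from 2.00 to 12.1 and 33.1 CPM. These 4 genes were looked at because of their positions. If strand was not used, reads within the exon bases that a pair shares cannot be told apart. Gm20496 shares 498 such bases with Psmb8 and 165 with Tap2, and Gm15821 shares 533 with Tap2. Gm19412 shares 904 with Tapbp, and 9330175E14Rik shares 78 with Nlrc5. The members Tap1 and Psmb9 share 212 exon bases on opposite strands. Zbtb22, which overlaps Tapbp on the same strand, did not follow it (39.1, 35.8 and 29.3 CPM).

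Of the 3 immunoproteasome subunits, Psmb9 was called higher with LPS+IFNg than with LPS at both times. Psmb8 (chr17:34197721-34201454, plus strand) and Psmb10 (chr8:105935735-105938444, minus strand) were called at 18 h with LPS and with LPS+IFNg, and the difference between these stimuli was called for neither with all libraries in the fit. Psmb9 held 34.4, 31.9 and 33.6 CPM without stimulus at 1 h, 33.6, 29.6 and 30.3 CPM with LPS, and 51.5, 53.6 and 54.7 CPM with LPS+IFNg. The LPS+IFNg libraries lay above all others at that time, by 0.68 ± 0.11 against unstimulated cells (1.60-fold, adjusted p = 1.0e-05, edgeR) and 0.77 ± 0.12 against LPS (1.71-fold). At 18 h Psmb9 went from 32.2, 34.3 and 32.4 CPM to 168, 217 and 158 CPM with LPS and 342, 360.3 and 315 CPM with LPS+IFNg, again fully separated, with log2 changes of 2.45 ± 0.10 (5.48-fold) and 3.36 ± 0.10 (10.3-fold) and a difference of 0.91 ± 0.09 (1.88-fold) between the stimuli. Tap1, which shares the start region of Psmb9, had the larger log2 change in each of these 5 comparisons, a difference that was not tested. Their ratio per kilobase, Tap1 to Psmb9, was 0.758 ± 0.0595 in unstimulated cells at 1 h, 2.49 ± 0.185 with LPS+IFNg at 1 h and 1.78 ± 0.0323 with LPS+IFNg at 18 h (SD, n = 3), chosen after its values were seen and not tested.

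Psmb8 at 1 h was not called with either stimulus: it held 95.1, 102 and 103 CPM without stimulus, 117, 105 and 95.3 CPM with LPS and 119, 105 and 116 CPM with LPS+IFNg. The differences were 0.09 with LPS and 0.18 with LPS+IFNg (95% interval -0.04 to 0.40), and library scaling by totals alone turned both negative, to -0.10 and -0.083. At 18 h it went from 111, 105 and 101 CPM to 560.2, 779.7 and 519 CPM with LPS and 638, 612 and 576 CPM with LPS+IFNg. Both stimulated groups were far above the unstimulated one and overlapped each other, with log2 changes of 2.55 ± 0.11 (5.86-fold) and 2.53 ± 0.11 (5.76-fold). The difference between the stimuli was -0.02 (95% interval -0.22 to 0.18), and without replicate 2 of LPS, the highest of the 6 libraries, it was 0.17 (adjusted p = 0.063, edgeR). With replicate 2 of IL-4 at 18 h left out as well, the difference of 0.17 was called (adjusted p = 0.044, edgeR).

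Psmb10 was also not called at 1 h, with 63.3, 67.4 and 69.3 CPM without stimulus, 81.6, 78.8 and 73.8 CPM with LPS and 74.7, 75.9 and 82.6 CPM with LPS+IFNg. Neither stimulated group overlapped the unstimulated one, and the differences were 0.23 (95% interval 0.01 to 0.45, adjusted p = 0.14) and 0.22 (0.01 to 0.44, adjusted p = 0.12, edgeR); the second became -0.041 with scaling by totals alone. At 18 h it rose from 60.1, 54.7 and 61.0 CPM to 323, 419 and 295 CPM with LPS and 375, 418 and 362 CPM with LPS+IFNg, by 2.56 ± 0.10 (5.90-fold) and 2.72 ± 0.10 (6.57-fold). The stimulated groups overlapped, and their difference of 0.16 (95% interval -0.03 to 0.34) was not called with all libraries but became 0.31 and was called without replicate 2 of LPS (adjusted p = 1.6e-03, edgeR).

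The constitutive catalytic subunits rose less than the induced ones that replace them. Psmb5, Psmb6 and Psmb7 rose by 1.02 ± 0.10, 0.93 ± 0.09 and 0.63 ± 0.09 on the log2 scale with LPS at 18 h and by 0.84 ± 0.10, 0.75 ± 0.09 and 0.75 ± 0.09 with LPS+IFNg. The ratio of each induced subunit to the constitutive one it replaces was taken per kilobase within each library, so that it does not depend on scaling. Its place above or below 1 depends on the transcript lengths taken, while its fold change between groups does not. By mean CPM without stimulus at 18 h, Psmb8 (106) lay above Psmb5 (86.3) and Psmb10 (58.6) below Psmb7 (96.4). With LPS+IFNg at 18 h, Psmb9 (339 CPM) lay above Psmb6 (243 CPM). Psmb8 to Psmb5 was 0.757, 0.640 and 0.640 without stimulus at 18 h, 1.90, 2.07 and 1.87 with LPS, and 2.21, 2.13 and 2.18 with LPS+IFNg. Both stimuli thus moved the message of this pair toward the induced subunit, 2.87-fold and 3.21-fold. Psmb10 to Psmb7 was 0.541, 0.494 and 0.581 without stimulus, 2.07, 2.16 and 1.90 with LPS and 2.06, 2.17 and 2.08 with LPS+IFNg, with the 2 stimulated groups overlapping (3.80-fold and 3.91-fold over unstimulated cells).

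With the transcript lengths taken, Psmb9 to Psmb6 stayed below 1 in every library. It was 0.128, 0.141 and 0.136 without stimulus at 18 h, 0.412, 0.377 and 0.386 with LPS (2.90-fold), and 0.834, 0.860 and 0.775 with LPS+IFNg (6.09-fold). The 3 groups were separated, and this was the pair in which the LPS+IFNg libraries stood furthest above the LPS ones. At 1 h the ratio was lower with LPS than without stimulus in all 3 libraries (0.0901 ± 0.00485 against 0.128 ± 0.00810, SD, n = 3) and higher with LPS+IFNg (0.171 ± 0.0118); Psmb6 itself was called higher with LPS at 1 h, by 0.40 ± 0.09. Where groups did not overlap, the exact permutation test, two-sided, gave p = 0.1, the smallest that 3 against 3 libraries can give, and an adjusted p of 0.138 over the 18 tests of the 3 ratios, so none of them could pass 0.05.

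**Figure D2:**
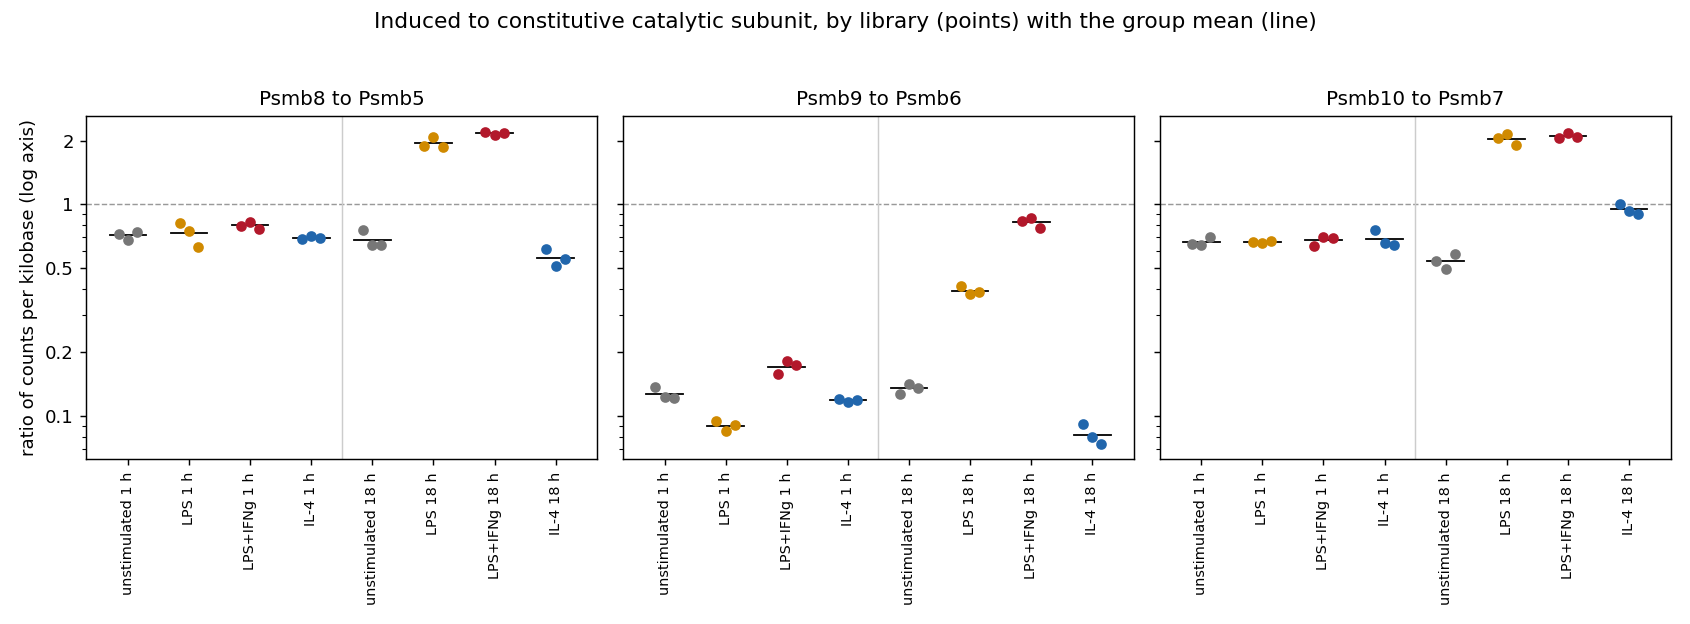
Ratio of each induced catalytic subunit to the constitutive subunit it replaces, from counts per kilobase on a log axis, with points for libraries and a line at each group mean. A dashed line marks a ratio of 1, and which points lie above it depends on the transcript lengths taken. With LPS or LPS+IFNg at 18 h the ratios to Psmb5 and Psmb7 rose to 1.87 or more, while Psmb9 to Psmb6 reached 0.860 at most.

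Nlrc5 (chr8:94434356-94527272, plus strand) rose with LPS and more with IFNg. At 1 h it held 49.8, 32.8 and 41.7 CPM without stimulus, 47.2, 37.1 and 48.8 CPM with LPS and 64.9, 61.0 and 56.0 CPM with LPS+IFNg. The LPS libraries overlapped the unstimulated ones, while those with LPS+IFNg lay above both groups, by 0.55 ± 0.13 against unstimulated cells (adjusted p = 1.1e-03, edgeR) and 0.45 ± 0.13 against LPS (1.37-fold, adjusted p = 0.019). With scaling by totals the changes were 0.28 (adjusted p = 0.075) and 0.38 (adjusted p = 0.069, edgeR), neither of them called. The second call was also lost without replicate 2 of LPS (0.34, adjusted p = 0.17) and without replicate 1 (0.40) or 2 (0.45) of LPS+IFNg. At 18 h Nlrc5 went from 42.7, 35.2 and 37.3 CPM to 199, 156 and 176 CPM with LPS and 583, 514 and 536 CPM with LPS+IFNg. These groups did not overlap, and the log2 changes were 2.21 ± 0.12 (4.62-fold) and 3.83 ± 0.12 (14.2-fold), a difference of 1.62 ± 0.11 (3.07-fold) between the stimuli.

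**Figure D3:**
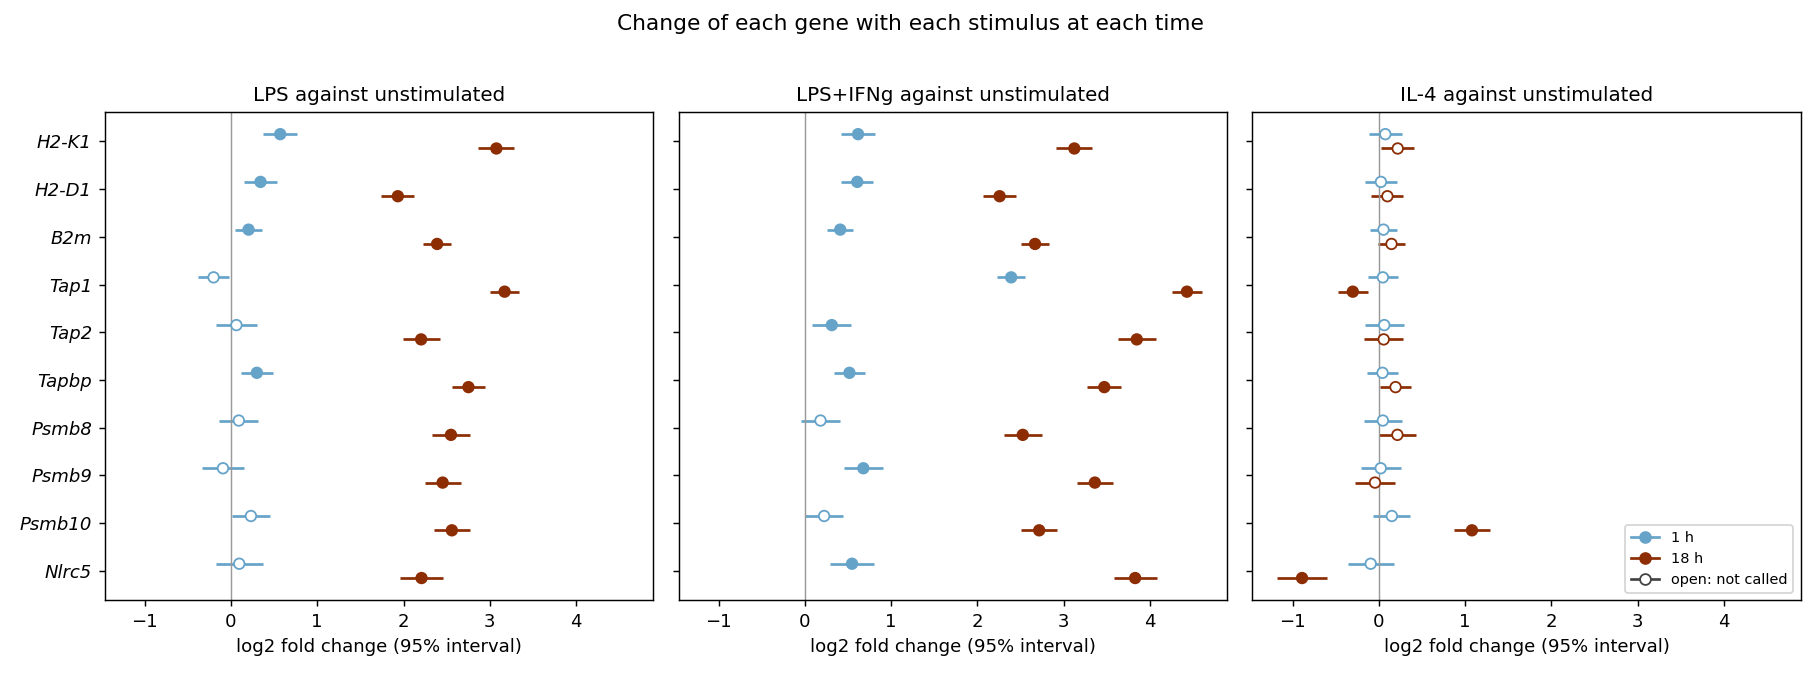
Log2 fold change of each gene against unstimulated cells of the same time for LPS, LPS+IFNg and IL-4, with 95% intervals, at 1 h (light blue) and 18 h (brown); filled points are called and open points are not. All 10 genes are called at 18 h with both inflammatory stimuli, from 1.93 (H2-D1 with LPS) to 4.43 (Tap1 with LPS+IFNg), and 3 of 10 with IL-4.

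With IFNg on top of LPS, 3 members were higher than with LPS at 1 h and 7 at 18 h. The LPS dose may differ between these groups as well. At 1 h LPS+IFNg against LPS raised Tap1, Psmb9 and Nlrc5, 3 of 10 genes, where 6.52% of tested genes were called higher. When single libraries were left out, 2 to 4 were called. Without the filter on low counts, and with the replicate block, 5 were called, H2-D1 and B2m being added. At 18 h it raised Tap2, Nlrc5, Tap1, Psmb9, Tapbp, H2-D1 and B2m, 7 of 10, where 23.96% were called higher; the median difference of the set was 0.52 on the log2 scale, beside 0.00 over all tested genes. H2-K1, Psmb8 and Psmb10 were not called at 18 h, with intervals that reach no higher than 0.34. Without replicate 2 of LPS at 18 h, 8 of 10 were called, Psmb10 being added.

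The effect of IFNg also differed between the times, by the test of the difference itself. From 1 h to 18 h it grew for Tap2 by 1.39 ± 0.15 on the log2 scale (adjusted p = 8.5e-09, edgeR), for Nlrc5 by 1.17 ± 0.17 (adjusted p = 2.2e-06) and for Tapbp by 0.50 ± 0.12 (adjusted p = 2.0e-03), 3 of 10 genes where 16.5% of tested genes were called higher. It shrank for Tap1 by 1.34 ± 0.11 (adjusted p = 5.7e-11, edgeR), the only one of the 10 called lower, where 18.5% were called lower. The effect on Psmb9 was 0.77 at 1 h and 0.91 at 18 h, a change of 0.14 with a 95% interval of -0.16 to 0.44. Of the 2 transporter genes, Tap1 thus had the larger IFNg effect at 1 h than at 18 h, and Tap2 the larger one at 18 h. For both LPS and LPS+IFNg the change from unstimulated cells was larger at 18 h than at 1 h in 10 of 10 genes, where 27.0% and 31.8% of tested genes were called higher in that test; the increase ran from 1.59 ± 0.13 (H2-D1) to 3.37 ± 0.12 (Tap1) with LPS and from 1.65 ± 0.13 (H2-D1) to 3.54 ± 0.15 (Tap2) with LPS+IFNg.

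**Figure D4:**
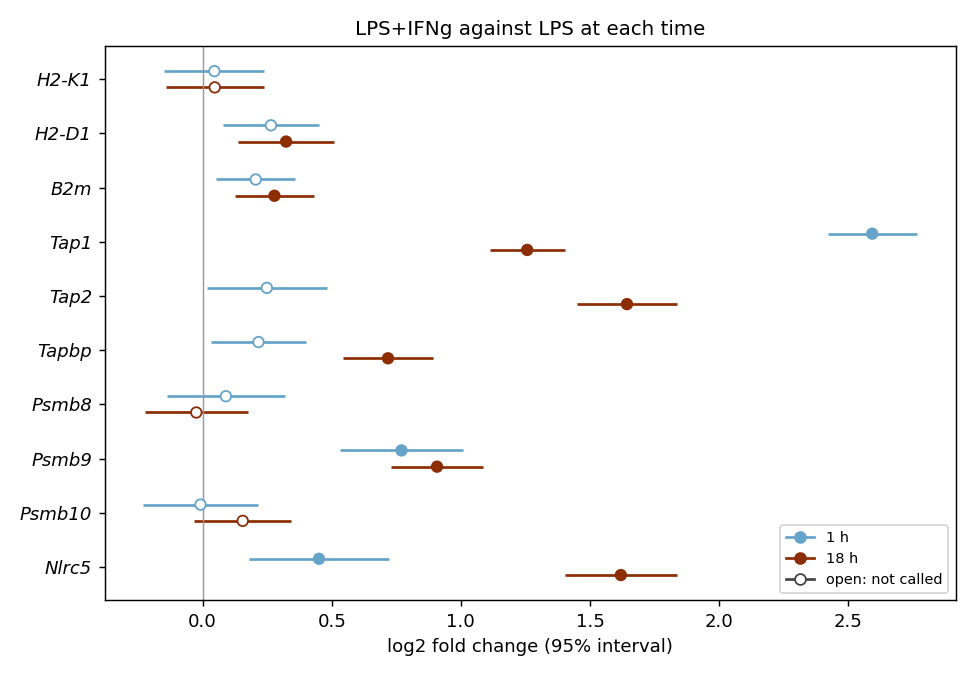
Log2 difference of LPS+IFNg from LPS for each gene at 1 h (light blue) and 18 h (brown) with 95% intervals; filled points are called. Tap1 has the larger difference at 1 h (2.59 against 1.26), Tap2 and Nlrc5 at 18 h (1.64 and 1.62), and H2-K1, Psmb8 and Psmb10 lie near 0 at both times.

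IL-4 left most of the set where it was and moved 3 genes at 18 h. At 1 h none of the 10 was called by edgeR's quasi-likelihood test or by DESeq2, and none had an unadjusted p under 0.05; 3.22% of tested genes were called higher and 3.27% lower, and the differences of the set ran from -0.09 (Nlrc5) to 0.15 (Psmb10). At 18 h 1 of 10 was called higher and 2 of 10 lower, where 19.0% and 20.1% of tested genes were, so that the share of the set called lower is at the background. Psmb10 held 123, 138 and 109.8 CPM with IL-4 at 18 h, about double the 3 unstimulated libraries given above, with a log2 change of 1.08 ± 0.10 (2.11-fold, adjusted p = 1.0e-09, edgeR). No other immunoproteasome subunit was called: Psmb8 differed by 0.22 (95% interval -0.0014 to 0.43, adjusted p = 0.11, edgeR) and Psmb9 by -0.04 (-0.27 to 0.18). Psmb8 was called without the filter on low counts (0.22, adjusted p = 0.048) and with the compared groups alone (0.22, adjusted p = 0.035, edgeR). Psmb10 to Psmb7 rose to 1.01, 0.934 and 0.901 (1.76-fold) with no overlap, while Psmb8 to Psmb5 was 0.560 ± 0.0518 (0.825 times) and Psmb9 to Psmb6 was 0.0816 ± 0.00887 (0.602 times the unstimulated value, SD, n = 3). The Psmb10 window holds TTCCAGGGAA at -67 to -58, which has the spacing that STAT6 binds; 6.98% of promoters hold a match of that spacing, which was searched after the values of Psmb10 were known.

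Nlrc5 and Tap1 fell with IL-4 at 18 h. Nlrc5 held 22.5, 17.0 and 23.1 CPM, below all 3 unstimulated libraries, and fell by 0.89 ± 0.14 on the log2 scale (0.540 times, adjusted p = 7.9e-06, edgeR). Tap1 held 50.3, 49.9 and 48.6 CPM, also below all 3, and fell by 0.30 ± 0.08 (0.812 times, adjusted p = 5.0e-03). The responses to IL-4 at 18 h and 1 h differed, by the interaction test, for Psmb10 (0.93 ± 0.15, adjusted p = 2.1e-05; 10.13% of tested genes were called higher), Nlrc5 (-0.80 ± 0.19, adjusted p = 2.8e-03) and Tap1 (-0.35 ± 0.12, adjusted p = 0.035; 11.4% called lower). The call for Tap1 in that test was lost in 8 of the 12 fits that each left out one library. The heavy chains, B2m, Tap2 and Tapbp were not called at 18 h, with differences of 0.22 for H2-K1, 0.10 for H2-D1, 0.15 for B2m, 0.057 for Tap2 and 0.19 for Tapbp. H2-K1 was called without replicate 3 of the unstimulated group (0.29, adjusted p = 0.035, edgeR), without the filter (adjusted p = 0.010), with the replicate block (adjusted p = 0.038) and with the compared groups alone (adjusted p = 0.022). Tapbp was called without replicate 3 of the unstimulated group (0.26, adjusted p = 0.048, edgeR) and with the compared groups alone (0.20, adjusted p = 0.047). Without replicate 2 of IL-4 at 18 h, the library that stood apart, Psmb10 changed by 0.99, Nlrc5 by -0.75 and Tap1 by -0.31, all still called.

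Other class I heavy chains rose with the set. Of 25 listed genes 22 were in the files and 13 were tested: 13 of 13 were called higher at 18 h with LPS (median 3.83) and with LPS+IFNg (median 3.88), where 31.8% and 36.1% of tested genes were called higher, and 7 and 6 of 13 at 1 h, against 10.8% and 14.7%. The largest changes at 18 h were those of H2-Q7 (7.06 ± 0.15 with LPS and 6.80 ± 0.15 with LPS+IFNg) and H2-Q6 (6.68 ± 0.18 and 7.17 ± 0.18), members of the Qa-2 group, and H2-Q5 led at 1 h (3.51 ± 0.25 with LPS and 3.24 ± 0.25 with LPS+IFNg). These genes resemble each other in sequence, so reads may have been split between them. IFNg on top of LPS at 18 h moved them both ways, 5 of 13 higher and 5 lower (23.96% and 23.4% of tested genes), among them H2-Q4 (0.74 ± 0.10) and H2-M2 (-2.30 ± 0.18). IL-4 at 18 h raised H2-T23 (0.46 ± 0.12) and lowered 3 of 13, H2-Q4 (-0.52 ± 0.12) and H2-M3 (-0.36 ± 0.11) among them, a share near the 20.1% of tested genes called lower.

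Among 12 genes of peptide loading and trimming, Tapbpl, which encodes the tapasin relative TAPBPR that edits the bound peptide, followed the set. It rose by 2.36 ± 0.10 with LPS and 4.41 ± 0.10 with LPS+IFNg at 18 h, and IFNg on top of LPS added 2.05 ± 0.08. Erap1, the aminopeptidase that trims peptides in the endoplasmic reticulum, rose by 0.65 ± 0.09 and 1.28 ± 0.08. The chaperone gene Calr went opposite ways, 0.42 ± 0.06 with LPS and -0.29 ± 0.06 with LPS+IFNg, both called, and Uggt1, which tags misfolded glycoproteins for another folding round, fell by 0.84 ± 0.08 and 1.23 ± 0.08. In all 7 of the 12 were called higher and 2 lower with LPS (median 0.22), and 4 higher and 7 lower with LPS+IFNg (median -0.19). Of all tested genes 31.8% were higher and 31.3% lower with LPS, and 36.1% in each direction with LPS+IFNg, so the 4 of 12 higher are near the background. Of 7 cytosolic peptidases, 2 rose and 2 fell at 18 h with LPS and likewise with LPS+IFNg, shares near those of all tested genes; Lap3 rose by 1.82 ± 0.10 and Thop1 fell by 1.76 ± 0.13 with LPS+IFNg.

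With LPS and LPS+IFNg at 18 h the proteasome activator genes Psme1 and Psme2, whose products form the PA28 cap, changed by 2.20 ± 0.09 and 2.25 ± 0.09 with LPS and 2.59 ± 0.09 and 2.66 ± 0.09 with LPS+IFNg. Of the 10 listed activator and assembly genes, 4 were called higher and 2 lower with LPS at 18 h (median 0.39). Over all tested genes these shares were 31.8% and 31.3%, so the 4 higher are near the background. Structural subunits of the 20S core were called higher in 11 of 11 (median 0.76) and 10 of 11 (median 0.66), beside 31.8% and 36.1% of tested genes, with Psma5 at 1.13 ± 0.10 and 1.55 ± 0.10. With IL-4 at 18 h the structural subunits were higher in 8 of 11 (median 0.36) and the constitutive catalytic ones in 3 of 3, where 19.0% of tested genes were called higher, Psmb6 by 0.68 ± 0.09, Psmb5 by 0.50 ± 0.10 and Psmb7 by 0.26 ± 0.09. Psme1 (0.45 ± 0.09) and Psme2 (0.50 ± 0.09) also rose with IL-4.

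Among the transcription factors of class I promoters, more were called higher at 1 h with LPS+IFNg than with LPS. Irf1, which binds the interferon response element of class I promoters, rose by 4.01 ± 0.08 with LPS and 6.17 ± 0.09 with LPS+IFNg at 1 h, and at 18 h by 2.34 ± 0.08 and 5.74 ± 0.09. Irf8 was raised by IFNg on top of LPS by 4.13 ± 0.08 at 1 h and 2.26 ± 0.07 at 18 h. Ciita, the class II counterpart of Nlrc5, rose with LPS+IFNg at 18 h by 5.11 ± 0.14 and with IL-4 at 18 h by 2.47 ± 0.16, in contrast to Nlrc5, which fell with IL-4. Of the 19 factors tested, 6 were called higher and 5 lower with LPS at 1 h, 13 and 3 with LPS+IFNg at 1 h, 13 and 3 with LPS at 18 h, and 13 and 1 with LPS+IFNg at 18 h. Over all tested genes the shares higher and lower were 10.8% and 11.4%, 14.7% in each direction, 31.8% and 31.3%, and 36.1% in each direction, so the counts of lower factors at 18 h lie below the background.

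Across all 8 groups the members differed in how far they ranged. The highest group mean exceeded the lowest 27.5-fold for Tap1, 26.1-fold for Nlrc5, 14.4-fold for Tap2 and 11.1-fold for Tapbp, and 4.78-fold for H2-D1, the narrowest. In 9 genes the highest group was LPS+IFNg at 18 h, and for Psmb8 it was LPS at 18 h. The top 2 groups overlapped for H2-K1, Psmb8 and Psmb10 and were separated for the other 7. Between LPS+IFNg and LPS at 18 h, 23.96% of tested genes were called higher and 23.4% lower. The share of all tested genes with separated groups was not counted, so these separations are a description only. Below them LPS+IFNg at 1 h was the next highest for 8 of the 10, and IL-4 at 18 h for Psmb8 and Psmb10; for Psmb8 it overlapped the next group. Among the lower groups LPS at 1 h was separated from the next group, IL-4 at 1 h, for H2-K1, H2-D1 and Tapbp, and IL-4 at 18 h was alone at the bottom for Nlrc5. Tap1 and Psmb10 also had separated neighbours there, while for B2m, Tap2, Psmb8 and Psmb9 the 5 lowest groups overlapped from neighbour to neighbour.

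Likeness of pattern was measured as the mean absolute difference between 2 genes over the 8 group means of log2 CPM, each centred on its own mean. It was taken among 9652 genes with at least 5 CPM and is given as a description. Predicted genes (symbols of Gm and a number, or with Rik) and identifiers without a symbol were left out. Gm20496, Gm15821, Gm19412 and 9330175E14Rik, which overlap members, were thus not compared. Within the set Tapbp and Psmb9 were closest (0.13) and H2-D1 and Tap1 farthest apart (0.94). Psmb8 was most like Nmi (0.07), Mov10 (0.09) and Psme1 (0.13), and Psmb10 was most like Psme1 (0.13), Esd (0.16) and Psme2 (0.16). Nlrc5 was most like Il13ra1 and Tbc1d9 (both 0.17), and H2-K1 was most like Tapbp (0.14). Among the genes compared, Tap1 had no near neighbour. Its 3 most alike genes were Tma16 (0.26), Dtx3l (0.30) and Gvin1 (0.35), while the most alike gene of every other member lay at 0.17 or less.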

How the data were processed

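The members and gene lists were chosen with earlier results of these data known. Each deposited file gives the raw counts of one library by Ensembl identifier, without a header. Per the submitters' processing notes the authors used STAR, featureCounts, DESeq2 and deepTools on GRCm38. The sources used here do not give versions, the annotation release, the strand setting or how reads with several alignments were counted. The library kit was TruSeq stranded mRNA, per the labels' protocols. Of 43629 identifiers 42548 matched GENCODE M21, from which lengths (longest principal coding transcript), positions and overlaps were taken. The labels do not say whether replicates are separate mice or cultures, and p-values then reflect the spread between libraries alone, which may be technical.

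filterByExpr with a minimum count of 10 kept 12765 genes for testing. After TMM scaling the counts were fitted over the 8 groups with edgeR 4.0.16 (limma 3.58.1, R 4.3.3), and quasi-likelihood tests, two-sided, were adjusted by Benjamini-Hochberg over all tested genes and called below 0.05. There were 9 comparisons of groups and 4 contrasts of a difference between times. The common biological coefficient of variation was 0.0736. CPM for levels used TMM-scaled totals; log2 CPM for likeness had a prior count of 2. The fit was tested on simulated data.

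All 10 members were counted in every comparison. Of each other list, up to 3 called genes with the largest absolute change and at least 5 CPM could be named, and always Psmb5, Psmb6, Psmb7, Psme1, Psme2, Irf1, Calr, Erap1 and Tapbpl; genes overlapping members and those most alike in pattern (3 per member) are also named. One further listed gene and one motif are not reported here. Promoters are RefSeq windows; Tap2 and Nlrc5 were not matched there.

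The fit had no replicate term. Same-numbered libraries deviated together for IL-4 against unstimulated cells at 1 h, where the correlations of their deviations were 0.13 to 0.23. In the other comparisons of groups these correlations ran from -0.091 to 0.18. Across the groups 21 of 24 libraries correlated best with their own number. The numbers may thus pair the libraries, which the labels do not say. With the replicate number as a block no member was called for IL-4 at 1 h either. The calls that the block added in other comparisons are given in the last section. Alternatives were median-of-ratios scaling, scaling by totals, no filter, the replicate block, the compared groups alone, DESeq2 1.42.0 and leaving out libraries.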

Additional observations from a re-analysis of the deposited data

Results flagged for a closer look

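The response of every member to LPS and to LPS+IFNg differed between 18 h and 1 h by edgeR's interaction test. With LPS the log2 change at 18 h exceeded that at 1 h by 2.51 for H2-K1, 1.59 for H2-D1, 2.19 for B2m, 3.37 for Tap1, 2.14 for Tap2, 2.45 for Tapbp, 2.46 for Psmb8, 2.55 for Psmb9, 2.33 for Psmb10 and 2.11 for Nlrc5. With LPS+IFNg the excess was 2.51 for H2-K1, 1.65 for H2-D1, 2.26 for B2m, 2.04 for Tap1, 3.54 for Tap2, 2.95 for Tapbp, 2.34 for Psmb8, 2.68 for Psmb9, 2.49 for Psmb10 and 3.28 for Nlrc5. The order of the genes was not the same: Tap1 had the largest excess with LPS and one of the 3 smallest with LPS+IFNg.

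The IL-4 response differed between the times for Tap1 (-0.35), Psmb10 (0.93) and Nlrc5 (-0.80). The effect of IFNg on top of LPS differed between the times for Tap1 (-1.34), Tap2 (1.39), Tapbp (0.50) and Nlrc5 (1.17).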

How the results depend on the processing

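No member called with all libraries changed direction under any alternative; the 63 changes of sign were of members not called there, and 1 of them, Psmb8 for LPS+IFNg against LPS at 18 h (0.17), was itself called. DESeq2 and median-of-ratios scaling kept 129 of 130 results each. Scaling by totals moved the median of all genes by -0.19 (LPS 1 h), -0.25 (LPS+IFNg 1 h), -0.41 (LPS 18 h), -0.54 (LPS+IFNg 18 h) and -0.12 (LPS+IFNg against LPS at 18 h), and the calls with LPS at 18 h became 2079 higher and 6984 lower, against 4055 and 4000. Under it LPS at 1 h had 1 member higher (H2-K1) and 2 lower (Tap1 -0.39, Psmb9 -0.28), LPS+IFNg at 1 h had 5 higher (B2m, Tap2 and Nlrc5 lost), and unstimulated cells at 18 h against 1 h had 0 lower; signs turned for LPS at 1 h in Tap2 (-0.13), Psmb8 (-0.10) and Nlrc5 (-0.094), LPS+IFNg at 1 h in Psmb8 (-0.083) and Psmb10 (-0.041), IL-4 at 18 h in Tap2 (-0.0057), LPS+IFNg against LPS in H2-K1 (-0.030 at 1 h, -0.065 at 18 h, and -0.035 for the difference between times), and Psmb9 over time without stimulus (0.063). Without the filter the members called were 3 higher with IL-4 at 18 h (H2-K1 and Psmb8 added), 5 higher for LPS+IFNg against LPS at 1 h, 2 lower over time and 1 lower for the IL-4 response between times, and Psmb10 for LPS+IFNg against LPS at 1 h was 0.0050 and H2-K1 for the change of the IFNg effect -0.016. B2m with LPS at 1 h lost its call without the filter and with the compared groups alone. In the latter fit IL-4 at 18 h had 4 higher (H2-K1, Psmb8 and Tapbp added) and H2-D1 for LPS+IFNg against LPS at 1 h was added (0.25); Psmb9 over time was 0.0043 in that fit, 0.00057 with median-of-ratios scaling and 1.5e-05 with DESeq2. The replicate block gave 2 higher with IL-4 at 18 h (H2-K1 0.22 added), 5 higher for LPS+IFNg against LPS at 1 h (H2-D1 0.26 and B2m 0.21 added) and 2 lower over time (H2-D1 -0.26 added), and changed no other call; 21 of 24 libraries correlated best with their own number, a hint from the data only. The cause of these changes was not tested.

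Leaving out one library at a time, the members called ranged from 2 to 4 (LPS 1 h, higher), 2 to 4 (LPS+IFNg against LPS at 1 h, higher), 1 to 3 (IL-4 18 h, higher), 1 to 2 (IL-4 response between times, lower) and 0 to 2 (over time, lower). The log2 ratio of Psmb8 to Psmb5 with LPS at 1 h ranged from -0.059 to 0.13, and that of Psmb10 to Psmb7 from -0.024 to 0.034 (LPS 1 h), -0.0044 to 0.068 (LPS+IFNg 1 h) and -0.034 to 0.087 (IL-4 1 h). Signs turned for members not called in these ranges. IL-4 at 1 h: H2-K1 -0.0018 to 0.16, H2-D1 -0.044 to 0.13, Tap2 -0.035 to 0.13, Tapbp -0.020 to 0.15, Psmb9 -0.0068 to 0.050, Nlrc5 -0.24 to 0.072. IL-4 at 18 h: Tap2 -0.0030 to 0.11, Psmb9 -0.12 to 0.061. IL-4 response between times: H2-D1 -0.032 to 0.15, Tap2 -0.072 to 0.092, Psmb9 -0.14 to 0.038. LPS at 1 h: Tap2 -0.00092 to 0.17, Psmb8 -0.00021 to 0.16, Nlrc5 -0.061 to 0.25. LPS+IFNg against LPS: H2-K1 -0.031 to 0.13 and Psmb10 -0.055 to 0.037 at 1 h, H2-K1 -0.023 to 0.15 and Psmb8 -0.14 to 0.17 at 18 h. Change of the IFNg effect: H2-K1 -0.081 to 0.11, H2-D1 -0.026 to 0.13, Psmb8 -0.23 to 0.084. Over time: Psmb9 -0.044 to 0.013, Nlrc5 -0.26 to 0.051. Without replicate 2 of both LPS and IL-4 at 18 h, Psmb8 turned to 0.17 for LPS+IFNg against LPS and 0.084 for the change of the IFNg effect, and Tap2 with IL-4 to -0.0022; without replicate 3 of both unstimulated and IL-4 cells at 18 h, Psmb9 with IL-4 turned to 0.048 and its response between times to 0.027, and that of Tap2 to 0.055, while Tap2 with IL-4 was 0.12 and the response of H2-D1 between times 0.17. With 3 libraries a group, no single size of log2 difference marked what could be called. With LPS at 1 h and all libraries, B2m was called at 0.20 and Psmb10 was not called at 0.23.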
